A study of Mus musculus with 8 samples.

Results

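The vacuolar-type proton ATPase (V-ATPase) was described through 10 of its subunit genes: Atp6v0d2, Atp6v0d1, Tcirg1, Atp6v0a1, Atp6v1a, Atp6v1b2, Atp6v1c1, Atp6v1d, Atp6v1e1 and Atp6v1h. They were taken by gene symbol from an expression table of 25124 genes, and all 10 were found there. RNA from mouse osteoclast precursor cells had been sequenced in 8 libraries, 2 in each of 4 groups: no PRDX1 + no RANKL, PRDX1 + no RANKL, no PRDX1 + RANKL, and PRDX1 + RANKL. The precursors were bone marrow cells of C57BL/6 mice aged 6 to 8 weeks in the sample labels, but of male ICR mice aged 6 weeks in the culture methods of the study. They were kept in 5 ng/ml M-CSF, the growth factor of macrophages, for 16 h, and the cells that had not attached were then expanded for 3 days in 30 ng/ml M-CSF. In the treatment that followed, all 4 groups received 30 ng/ml M-CSF for 48 h, and those with RANKL, the cytokine that drives osteoclast formation, received it at 100 ng/ml. PRDX1 (peroxiredoxin 1, a peroxidase that can act outside cells) was added at 200 nM as a His-tagged protein made in Escherichia coli. The study's methods state that the purified protein was cleared of endotoxin with a resin. The design asks how RANKL changed these genes, how PRDX1 changed them with and without RANKL, and whether the RANKL effect differed when PRDX1 was there. Nothing in the labels says whether the libraries of a group came from separate animals or cultures, so that p-values measure only the spread between these libraries, which may be technical.

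The V-ATPase pumps protons across membranes at the cost of ATP. Its V1 sector, in the cytosol, splits ATP and turns a central stalk, and its V0 sector, in the membrane, holds the ring that carries the protons, while the a subunit supplies their path and peripheral stalks hold the machine still. Most cells use the pump to acidify lysosomes and endosomes, whereas the osteoclast also inserts it into the ruffled border, the folded membrane that faces bone, and secretes the acid that dissolves mineral. Several subunits exist as isoforms coded by separate genes. Atp6v0d2 (subunit d2) and Tcirg1 (subunit a3) are the forms known from osteoclasts, and Atp6v0d1 (d1) and Atp6v0a1 (a1) are forms found in many tissues.

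Values are given as FPKM, read counts divided by transcript length and library total, which allows levels of different genes to be set side by side. Library totals recovered from the table were 27284656 to 46171832 reads, of which 24542578 to 41712973 lay on genes, and the 10 subunit genes held between 514 and 35857 reads in any library, so that none of their levels rested on few reads. Reads had been counted without regard to strand, and none of the 10 genes shares exon bases with another annotated gene (GENCODE), although the spans of Atp6v0a1, Atp6v1b2 and Atp6v1e1 overlap with Mir6928, Slc18a1 and Gm25193. Differences were fitted with limma on log2(FPKM + 1) over the 11700 genes whose mean reached 0.5 FPKM, a filter that all 10 subunit genes passed. Below, fold changes are on that scale and are given with their standard error (SE), and p-values carry the Benjamini-Hochberg adjustment over all genes tested. A gene was called when its adjusted p was under 0.05 and its fold change at least 1.5. The 8 osteoclast markers, which include Ctsk, Acp5 and Mmp9, summed to 27.4 to 28.3 FPKM in no PRDX1 + no RANKL, 59.4 to 60.2 in PRDX1 + no RANKL, 1650 to 1760 in no PRDX1 + RANKL and 208 to 217 in PRDX1 + RANKL. The 7 macrophage markers summed in the same order to 2460 to 2500, 2690 to 2770, 1410 to 1530 and 2030 to 2060 FPKM. Most of the osteoclast sum without RANKL was Acp5, with means of 23.65 FPKM in no PRDX1 + no RANKL and 53.69 in PRDX1 + no RANKL. Itgb3 went the other way between these groups, from 1.88 to 0.66, and Calcr was at 0 in both. In PRDX1 + RANKL, Itgb3 was at 1.56 FPKM, below its untreated level. Over all libraries the sums were 8.19 to 43.3 FPKM for 8 neutrophil markers, 6.95 to 19.7 for 5 dendritic cell markers, 8.68 to 20.6 for 7 stromal and osteoblast markers and 0.577 to 2.08 for 4 B cell markers, and each of these sums was higher in every library with PRDX1 than in every library without it. Most of the dendritic cell sum was Itgax, with means of 5.36 FPKM in no PRDX1 + no RANKL and 13.9 in PRDX1 + no RANKL. Cd209a went the other way between these groups (1.25 and 0.60). Most of the neutrophil sum was S100a8 (4.15 and 17.2) and S100a9 (4.31 and 19.5), while Ngp overlapped. Markers of T and NK cells reached 0.417 to 1.37 FPKM, with Cd3e and Ncr1 at 0. The part of these cell types in the results was not tested.

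Genes of the lysosome and of the V-ATPase are known targets of the MiT/TFE transcription factors, which bind the E-box CACGTG and related letters. Promoter sequences of RefSeq, build GRCm38.p6, were at hand for 6 of the 10 subunit genes (Atp6v0d1, Tcirg1, Atp6v0a1, Atp6v1a, Atp6v1d and Atp6v1e1), each covering 250 bases before the annotated start and 50 after it. The letters CACGTG, which read the same on both strands, were in 2 of these 6 windows and in 7.15% of the 32817 promoter windows of the same length. They are in capitals in the sequences below, which are shown because they set the window of a gene that differed little between groups beside those of genes with larger differences by RANKL. Each runs 5′ to 3′ on the minus strand of the genome and ends 10 bases past the start. The window of Atp6v0d1 (chr8:105566055-105566314), in which the E-box starts 3 bases before the start site and spans it, reads as follows.
Atp6v0d1: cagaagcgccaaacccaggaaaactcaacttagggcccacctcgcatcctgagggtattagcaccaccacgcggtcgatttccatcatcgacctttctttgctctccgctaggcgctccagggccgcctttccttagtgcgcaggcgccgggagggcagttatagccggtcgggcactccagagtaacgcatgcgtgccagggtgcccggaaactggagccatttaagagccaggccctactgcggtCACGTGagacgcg
In the window of Atp6v1a (chr16:44139250-44139509) the E-box starts 131 bases before the start site.
Atp6v1a: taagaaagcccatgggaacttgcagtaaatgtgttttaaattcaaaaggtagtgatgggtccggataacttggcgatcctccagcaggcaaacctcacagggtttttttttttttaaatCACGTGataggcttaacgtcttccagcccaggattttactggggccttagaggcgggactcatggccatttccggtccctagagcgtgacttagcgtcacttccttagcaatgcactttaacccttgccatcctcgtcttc
The window of Atp6v1d (chr12:78861629-78861888) holds no CACGTG.
Atp6v1d: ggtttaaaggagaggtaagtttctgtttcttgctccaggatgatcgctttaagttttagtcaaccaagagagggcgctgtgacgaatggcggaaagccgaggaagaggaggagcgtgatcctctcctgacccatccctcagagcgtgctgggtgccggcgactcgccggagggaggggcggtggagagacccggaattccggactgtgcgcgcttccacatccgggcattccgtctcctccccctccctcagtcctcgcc
The longer form GTCACGTG, which contains the E-box, was found in the window of Atp6v0d1 only, against 2.24% of all windows. CATGTG, a related E-box, was in none of the 6, against 14.2%. GGAAA, part of the sites read by NFAT and NF-κB proteins, was in 5 of 6 against 61.3%, and TGANTCA, the AP-1 site, in 1 of 6 (Atp6v0a1) against 7.81%. The start site annotated for the Atp6v0a1 window lay 957 bases from the start of its transcript in the expression table. All searches covered both strands, and a match describes letters in a window, not a bound site.

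The d subunit joins the central stalk of V1 to the proton-carrying ring of V0, and its isoform d2 is also known for a role in the fusion of osteoclast precursors. Atp6v0d2 (NM_175406, chr4:19876838-19922566, minus strand, mm10) measured 6.96 and 7.02 FPKM in no PRDX1 + no RANKL, 24.5 and 21.0 in PRDX1 + no RANKL, 186 and 168 in no PRDX1 + RANKL, and 27.3 and 25.5 in PRDX1 + RANKL. The 4 groups did not overlap, and both libraries with RANKL alone stood far above the other 6. RANKL without PRDX1 raised Atp6v0d2 22.2-fold (log2 4.47 ± 0.08 SE, limma adjusted p = 7.3e-11). With RANKL present, PRDX1 lowered it 6.47-fold (log2 -2.70 ± 0.08, adjusted p = 1.01e-08). Without RANKL the direction was the opposite, and PRDX1 took it 2.97-fold up (log2 1.57 ± 0.08, adjusted p = 6.31e-07). RANKL on top of PRDX1 gave a log2 difference of 0.21 with a 95% interval of 0.03 to 0.39, which missed the threshold (adjusted p = 0.0577). It stayed below 1.5-fold under every alternative, at 0.10 (adjusted p = 0.384) without PRDX1 + no RANKL replicate 2 and 0.32 (adjusted p = 0.0191) without PRDX1 + no RANKL replicate 1, and over all alternatives its adjusted p ran from 0.0191 to 0.384. PRDX1 + RANKL stood 3.43-fold above no PRDX1 + no RANKL (log2 1.78, adjusted p = 7.29e-08). In bulk RNA, fewer cells of a type and less RNA per cell cannot be told apart, and the sum of the osteoclast markers given above was highest in the same 2 libraries.

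Atp6v0d1 (NM_013477, chr8:105524461-105566064, minus strand) codes for the isoform present in most tissues. It measured 88.3 and 92.9 FPKM in no PRDX1 + no RANKL, 95.2 and 85.4 in PRDX1 + no RANKL, 89.3 and 96.8 in no PRDX1 + RANKL, and 81.7 and 89.4 in PRDX1 + RANKL. All groups overlapped, and no neighbours in the order of the group means differed beyond their spread. Its log2 difference was 0.04 for RANKL without PRDX1, with a 95% interval of -0.12 to 0.19, and -0.12 for PRDX1 with RANKL, with an interval of -0.27 to 0.03. The sign of the first of these turned under another scaling of the libraries. None of the 6 tests of Atp6v0d1 passed (adjusted p between 0.188 and 0.959).

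Read together, both d genes gave the isoform make-up of the subunit mRNA. Atp6v0d2 made up 7.31% and 7.03% of the summed FPKM of both genes in no PRDX1 + no RANKL, 20.5% and 19.7% in PRDX1 + no RANKL, 67.5% and 63.4% in no PRDX1 + RANKL, and 25.1% and 22.2% in PRDX1 + RANKL. The d2 form was the larger part only in the libraries with RANKL alone. The summed level of the 2 genes was 97.5 ± 3.29 FPKM (SD, n = 2) in no PRDX1 + no RANKL, 113 ± 9.46 in PRDX1 + no RANKL, 269.7 ± 7.26 in no PRDX1 + RANKL and 112 ± 4.12 in PRDX1 + RANKL. Most of the distance between RANKL alone and the other groups in this sum lay in Atp6v0d2. The log2 ratio of Atp6v0d2 to Atp6v0d1 was 2.36 higher in the 4 libraries with RANKL than in the 4 without (exact permutation test, two-sided, p = 0.0286, the smallest this design allows). That value joins unlike parts of the design, since the log2 difference by RANKL was 4.44 without PRDX1 and 0.29 with PRDX1, and 2 libraries against 2 cannot go below p = 0.333 in a permutation test.

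The a subunit anchors V0 to the peripheral stalks and carries the path of the protons. Its isoform a3, the product of Tcirg1, is the form of the ruffled border, and its loss in mice and humans causes osteopetrosis. Tcirg1 (NM_001136091, chr19:3896050-3907133, minus strand) measured 154 and 161 FPKM in no PRDX1 + no RANKL, 226 and 219 in PRDX1 + no RANKL, 220.5 and 246 in no PRDX1 + RANKL, and 209 and 223 in PRDX1 + RANKL. Both libraries without either factor were below the other 6, and the 3 treated groups overlapped with each other. The log2 difference was 0.56 ± 0.06 for RANKL without PRDX1 (adjusted p = 1.68e-05) and 0.49 ± 0.06 for PRDX1 without RANKL (adjusted p = 1.70e-04), both short of 1.5-fold. The first passed 1.5-fold when no PRDX1 + no RANKL replicate 2 or no PRDX1 + RANKL replicate 1 was left out. For PRDX1 with RANKL it was -0.11 with a 95% interval of -0.24 to 0.02 (adjusted p = 0.162).

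Atp6v0a1 (NM_001362639, chr11:101009441-101063717, plus strand) codes for a1, a form best known from neurons and present in many tissues. Among the 10 it was the one called in the direction opposite to the others. It measured 44.9 and 51.0 FPKM in no PRDX1 + no RANKL, 60.6 and 60.6 in PRDX1 + no RANKL, 15.6 and 15.6 in no PRDX1 + RANKL, and 31.3 and 34.6 in PRDX1 + RANKL. The groups did not overlap, with PRDX1 + no RANKL at the top and RANKL alone at the bottom. RANKL without PRDX1 lowered Atp6v0a1 2.95-fold (log2 -1.56 ± 0.07, adjusted p = 3.70e-08), and RANKL with PRDX1 lowered it 1.82-fold (log2 -0.86 ± 0.07, adjusted p = 9.66e-06). PRDX1 raised it 2.04-fold with RANKL (log2 1.03 ± 0.07, adjusted p = 2.08e-06), and without RANKL the log2 difference was 0.33 ± 0.07 (adjusted p = 0.00551), below 1.5-fold.

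The make-up of the a subunit mRNA moved toward a3 with RANKL. Without PRDX1, Atp6v0a1 fell (log2 -1.56) by more than Tcirg1 rose (0.56). With PRDX1, Atp6v0a1 fell (-0.86) and Tcirg1 did not rise (-0.04, limma adjusted p = 0.589). Tcirg1 made up 77.5% and 75.9% of the summed FPKM of Tcirg1 and Atp6v0a1 in no PRDX1 + no RANKL, 78.8% and 78.3% in PRDX1 + no RANKL, 93.4% and 94.0% in no PRDX1 + RANKL, and 87.0% and 86.6% in PRDX1 + RANKL. The lowest library was at 75.9%, and the groups with RANKL lay above those without it. The summed level of both genes was 205.5 ± 9.19 FPKM in no PRDX1 + no RANKL, 283.1 ± 4.44 in PRDX1 + no RANKL, 248.7 ± 17.9 in no PRDX1 + RANKL and 248.9 ± 11.9 in PRDX1 + RANKL (SD, n = 2). The log2 ratio of Tcirg1 to Atp6v0a1 was 1.47 higher with RANKL than without (exact permutation test of 4 libraries against 4, two-sided, p = 0.0286, the smallest this design allows), at 2.12 without PRDX1 and 0.82 with it. A further isoform, Atp6v0a2, measured 11.8 to 16.5 FPKM in the 8 libraries. With it counted in, the share of Tcirg1 among the 3 a genes was 72.4% ± 0.98 in no PRDX1 + no RANKL, 74.8% ± 0.58 in PRDX1 + no RANKL, 88.5% ± 0.77 in no PRDX1 + RANKL and 81.5% ± 0.30 in PRDX1 + RANKL.

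**Figure D1:**
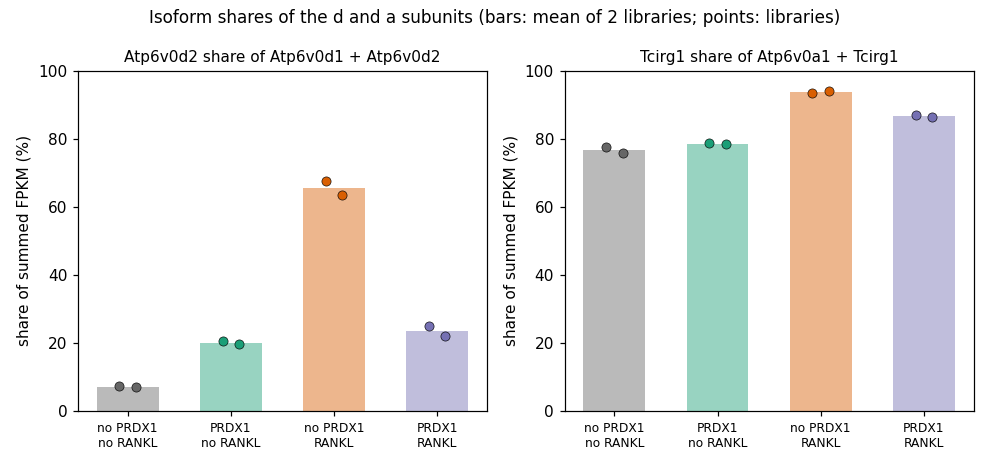
Share of Atp6v0d2 in the summed FPKM of Atp6v0d1 and Atp6v0d2 (left) and of Tcirg1 in that of Atp6v0a1 and Tcirg1 (right), in percent, by group, where bars are means of 2 libraries and points the libraries. The d2 share was the larger one in the libraries with RANKL alone, at 63.4% and 67.5%, while the Tcirg1 share lay between 75.9% and 94.0% throughout.

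The V1 sector was represented by 6 of the genes. Atp6v1a and Atp6v1b2 code for the A and B subunits, which alternate in the head of V1, where A splits ATP and B2 is the B form of osteoclasts and most other cells. Atp6v1b2 (NM_007509, chr8:69088736-69113717, plus strand) measured 138 and 137 FPKM in no PRDX1 + no RANKL, 170.3 and 169.6 in PRDX1 + no RANKL, 379 and 381 in no PRDX1 + RANKL, and 183 and 174 in PRDX1 + RANKL. RANKL alone gave more than any other group by a wide margin, and the remaining groups did not overlap with each other either. RANKL without PRDX1 raised Atp6v1b2 2.75-fold (log2 1.46 ± 0.04, adjusted p = 1.39e-09), and PRDX1 with RANKL lowered it 2.12-fold (log2 -1.08 ± 0.04, adjusted p = 4.15e-08). RANKL with PRDX1 gave a log2 difference of 0.07 with a 95% interval of -0.02 to 0.16 (adjusted p = 0.189).

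The partner of B moved much less. Atp6v1a (NM_001358204, chr16:44085404-44139259, minus strand) measured 129.3 and 129.3 FPKM in no PRDX1 + no RANKL, 152 and 147 in PRDX1 + no RANKL, 177 and 170.2 in no PRDX1 + RANKL, and 129.0 and 131 in PRDX1 + RANKL. RANKL alone was highest here as well, and PRDX1 + RANKL overlapped with the untreated group. The log2 difference was 0.42 ± 0.04 for RANKL without PRDX1 (adjusted p = 1.31e-05) and -0.41 ± 0.04 for PRDX1 with RANKL (adjusted p = 3.27e-05), neither of them at 1.5-fold. The levels of Atp6v1a and Atp6v1b2 were close to each other without either factor and farthest apart with RANKL alone.

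Atp6v1d (NM_023721, chr12:78842982-78861638, minus strand), coding for the D subunit at the core of the central stalk, measured 42.3 and 39.7 FPKM in no PRDX1 + no RANKL, 44.5 and 42.9 in PRDX1 + no RANKL, 102 and 89.9 in no PRDX1 + RANKL, and 43.9 and 40.5 in PRDX1 + RANKL. The libraries with RANKL alone were high, and the 3 other groups lay together, with PRDX1 + RANKL inside the range spanned by the groups without RANKL. RANKL without PRDX1 raised Atp6v1d 2.31-fold (log2 1.21 ± 0.07, adjusted p = 2.40e-07), and PRDX1 with RANKL lowered it 2.24-fold (log2 -1.17 ± 0.07, adjusted p = 9.64e-07). PRDX1 without RANKL gave a log2 difference of 0.09 with a 95% interval of -0.07 to 0.25 (adjusted p = 0.377).

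Atp6v1c1 codes for the C subunit, which bridges the stalks and V0 and leaves the pump when V1 comes off. It (NM_025494, chr15:38661904-38692444, plus strand) measured 81.5 and 84.6 FPKM in no PRDX1 + no RANKL, 92.5 and 90.7 in PRDX1 + no RANKL, 127.6 and 128.0 in no PRDX1 + RANKL, and 82.3 and 82.2 in PRDX1 + RANKL. Again RANKL alone was the high group, and PRDX1 + RANKL fell within the untreated range. The increase by RANKL was 1.53-fold (log2 0.62 ± 0.04, adjusted p = 9.31e-07) and the decrease by PRDX1 with RANKL 1.55-fold (log2 -0.63 ± 0.04, adjusted p = 2.15e-06). Both lay just past 1.5-fold and fell short of it when the libraries were scaled by quantiles or by their upper quartile.

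Atp6v1e1, for the E subunit of the peripheral stalks, and Atp6v1h, for the H subunit that links V1 to the a subunit and regulates its activity, completed the sector. Atp6v1e1 (NM_007510, chr6:120795244-120822698, minus strand) measured 107 and 105 FPKM in no PRDX1 + no RANKL, 119 and 127 in PRDX1 + no RANKL, 155 and 146 in no PRDX1 + RANKL, and 110.8 and 110.8 in PRDX1 + RANKL. Atp6v1h (NM_001310442, chr1:5083086-5162549, plus strand) measured 58.2 and 53.2 FPKM in no PRDX1 + no RANKL, 61.4 and 59.2 in PRDX1 + no RANKL, 83.3 and 79.8 in no PRDX1 + RANKL, and 55.9 and 55.0 in PRDX1 + RANKL. For each, both libraries with RANKL alone were above the other 6, and for Atp6v1h PRDX1 + RANKL lay inside the untreated range. Neither reached 1.5-fold for RANKL without PRDX1, with log2 differences of 0.51 ± 0.05 for Atp6v1e1 and 0.54 ± 0.06 for Atp6v1h (adjusted p = 1.01e-05 and 1.49e-05). Nor did they for PRDX1 with RANKL, at -0.44 ± 0.05 and -0.55 ± 0.06 (adjusted p = 6.14e-05 and 3.11e-05). Without no PRDX1 + no RANKL replicate 1, Atp6v1h passed 1.5-fold for RANKL.

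**Figure D2:**
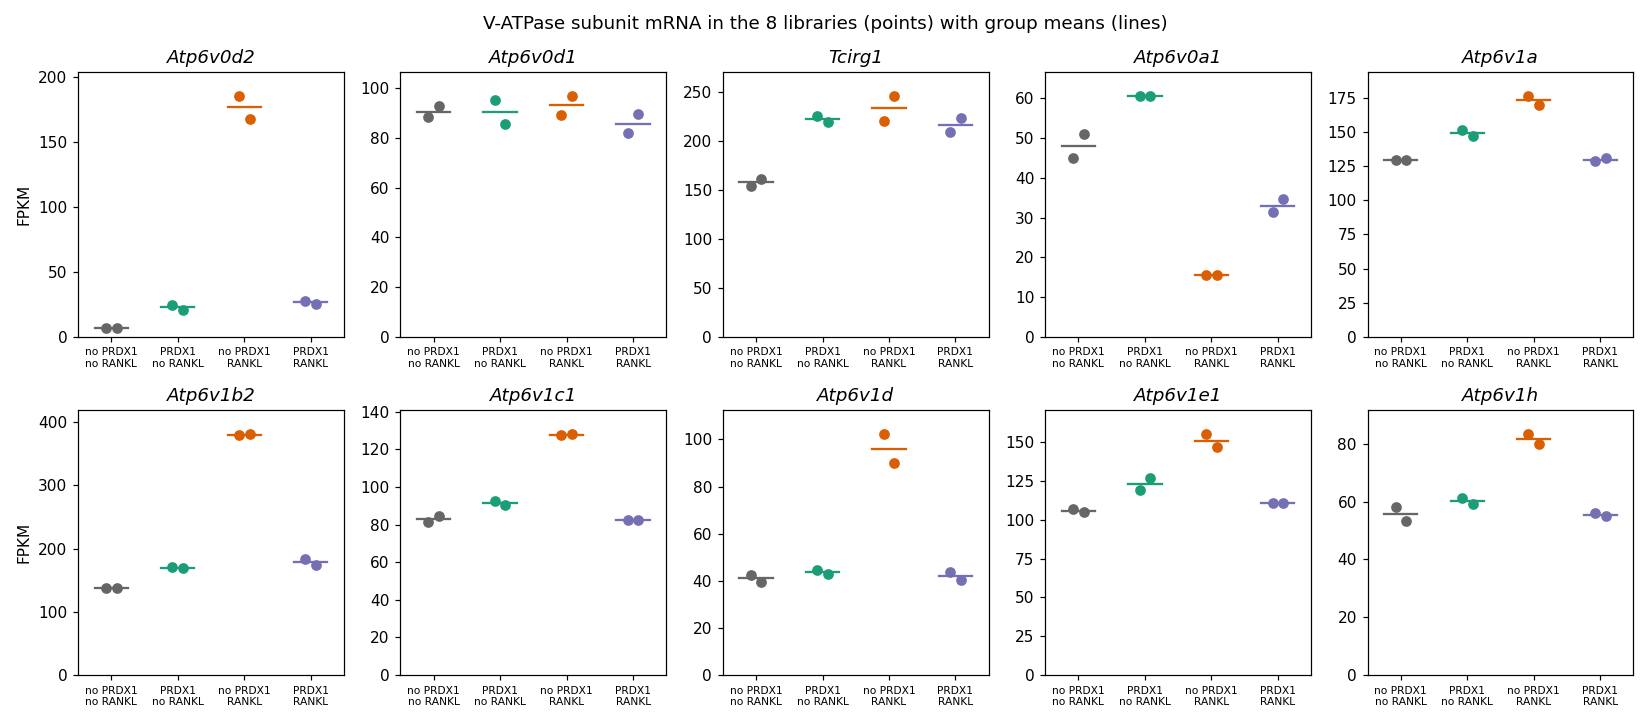
FPKM of the 10 V-ATPase subunit genes in each of the 8 libraries (points) with the mean of each group (lines), 1 panel a gene and its own axis from 0. RANKL alone had the highest mean for every gene but Atp6v0a1, where it had the lowest, and it overlapped with other groups for Atp6v0d1 and Tcirg1.

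The counts of calls over the 10 genes followed these levels. For RANKL without PRDX1, 4 were called higher (Atp6v0d2, Atp6v1b2, Atp6v1d and Atp6v1c1) and 1 lower (Atp6v0a1), beside 21.8% of all genes tested called in that comparison, 11.8% higher and 9.96% lower. Of the calls over all genes 54.3% were higher, a share that turned to 45.1% after quantile normalization of the libraries and to 47% when they were scaled to their upper quartile. At an adjusted p under 0.05 and any fold, 8 were higher and 1 lower, beside 59.9% of all genes (37% higher and 22.9% lower). The median log2 difference of the 10 was 0.55, and that of all genes 0.10. PRDX1 with RANKL gave the mirror image, with the same 4 called lower and Atp6v0a1 higher, beside 10.2% of all genes (6.03% higher and 4.17% lower), and with medians of -0.49 for the 10 and -0.06 for all genes. At any fold, 1 was higher and 7 lower, beside 42.5% of all genes (16.9% higher and 25.6% lower). The libraries with RANKL alone enter both comparisons, so that opposite signs in them are partly built in.

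PRDX1 without RANKL called 1 of the 10, Atp6v0d2, as higher, beside 5.79% of all genes (3.8% higher and 1.99% lower). At any fold 7 of the 10 were higher and none lower, beside 29.8% of all genes (12.2% higher and 17.6% lower), and the log2 differences other than that of Atp6v0d2 ran from -0.01 to 0.49. RANKL with PRDX1 called Atp6v0a1 lower and nothing higher, beside 8.5% of all genes (4.52% higher and 3.98% lower, a balance that also turned under these scalings, from 53.2% of the calls higher to 44.8% and 46.2%). At any fold it gave 4 of the 10 as lower (Atp6v0a1, Atp6v1a, Atp6v1c1 and Atp6v1e1) and 0 higher, beside 40.6% of all genes (14.4% lower and 26.2% higher), and the median log2 difference was -0.10 against 0.07 for all genes. PRDX1 + RANKL against no PRDX1 + no RANKL called Atp6v0d2 higher and no other, beside 12.8% of all genes (7.5% higher and 5.34% lower), with a median of 0.02 against 0.03 for all genes. At any fold it gave 3 as higher (Atp6v0d2, Tcirg1 and Atp6v1b2) and 1 as lower (Atp6v0a1), beside 44.2% of all genes (24.7% higher and 19.5% lower). Atp6v0a1, at -0.53 ± 0.07 in PRDX1 + RANKL against no PRDX1 + no RANKL (adjusted p = 1.84e-04), was called lower when no PRDX1 + no RANKL replicate 1 or PRDX1 + RANKL replicate 2 was left out.

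**Figure D3:**
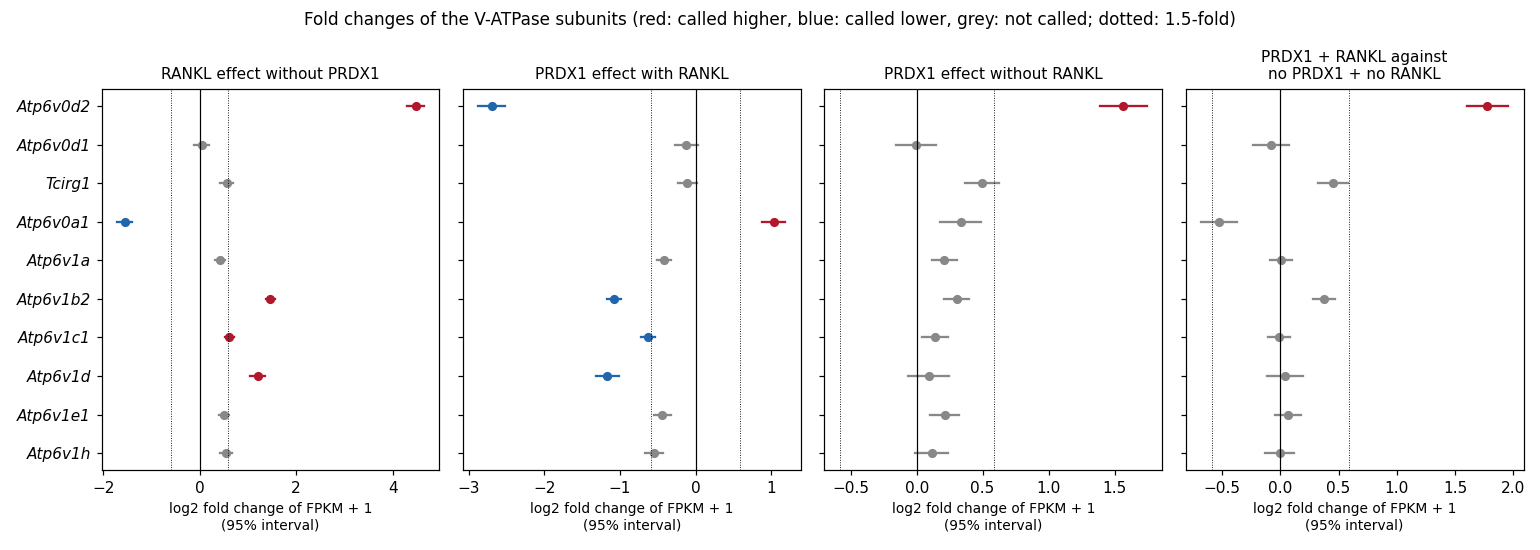
Log2 fold change of FPKM + 1 with its 95% interval for the 10 subunit genes in 4 comparisons; red points were called higher, blue lower and grey not called, and dotted lines mark 1.5-fold. Atp6v0d2 reached 4.47 with RANKL alone, -2.70 with PRDX1 added to RANKL and 1.57 with PRDX1 alone, and the horizontal axes differ between panels.

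Whether the RANKL effect differed between cells with and without PRDX1 was tested by the interaction term. It was called for 9 of the 10 genes, 8 of them lower and Atp6v0a1 higher, beside 8.85% of all genes tested (4.5% higher and 4.35% lower). The same 9 passed at any fold, beside 23.1% of all genes (11.2% higher and 12% lower). The exception was Atp6v0d1, at -0.11 with a 95% interval of -0.33 to 0.10 (adjusted p = 0.455). The interaction was -4.26 ± 0.11 on the log2 scale for Atp6v0d2 (adjusted p = 3.42e-08), -1.39 ± 0.06 for Atp6v1b2 (adjusted p = 3.58e-07) and -1.26 ± 0.10 for Atp6v1d (adjusted p = 1.99e-05). The other 5 lower calls ran from -0.77 (Atp6v1c1) to -0.60 (Tcirg1), and Atp6v0a1 had 0.70 ± 0.10 (adjusted p = 7.55e-04). Of these, Tcirg1, Atp6v1a and Atp6v1e1 fell short of 1.5-fold under quantile normalization, which left 6 of the 10 called. The Tcirg1 call was also lost in 4 of the 8 fits with a library left out, those lacking no PRDX1 + no RANKL replicate 1, PRDX1 + no RANKL replicate 1, no PRDX1 + RANKL replicate 2 or PRDX1 + RANKL replicate 1.

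The remaining subunits of the pump are coded by 15 further genes, of which 10 passed the filter. Those below it were the kidney and epithelial isoforms Atp6v0a4, Atp6v1b1 and Atp6v1c2, the testis isoform Atp6v1e2, and Atp6v1g3. Atp6v1b1 and Atp6v1g3 were listed at 0 in all 8 libraries, Atp6v0a4 and Atp6v1e2 had at most 2 reads, and Atp6v1c2 had 5 to 20 reads. RANKL without PRDX1 called 3 of the 10 tested higher and none lower, beside 21.8% of all genes called (11.8% higher): Atp6v0b (a ring subunit, log2 0.79), Atp6v0c (the main ring subunit, 0.68) and Atp6v0e (a small membrane subunit, 0.65). Atp6v0b measured 214 and 204 FPKM in no PRDX1 + no RANKL, 213.0 and 213.3 in PRDX1 + no RANKL, 364 and 361 in no PRDX1 + RANKL, and 268 and 256 in PRDX1 + RANKL. Atp6v0e measured 189 and 176 FPKM in no PRDX1 + no RANKL, 187 and 189.8 in PRDX1 + no RANKL, 300.4 and 274 in no PRDX1 + RANKL, and 201 and 192 in PRDX1 + RANKL. In both, the libraries with RANKL alone were above all others. The value of Atp6v0c is uncertain, because the table also lists Atp6v0c-ps2 at the same place with nearly the same levels, 91.2 ± 8.35 and 142 ± 15.1 FPKM in no PRDX1 + no RANKL and no PRDX1 + RANKL against 91.0 ± 9.09 and 147 ± 16.1 for Atp6v0c. The Atp6v0c call was lost when no PRDX1 + no RANKL replicate 1 or no PRDX1 + RANKL replicate 2 was left out, and the Atp6v0e call under upper quartile scaling or when no PRDX1 + RANKL replicate 1 was left out.

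The 7 tested subunits that RANKL did not call had log2 differences from -0.40 for Atp6v0e2, an isoform of the small membrane subunit, to 0.48 for Atp6v1f, a central stalk subunit. Between them lay Atp6v1g1 (0.36, peripheral stalk), the accessory genes Atp6ap2 (0.32) and Atp6ap1 (0.12), Atp6v0a2 (0.26) and Atp6v1g2 (-0.05). None of the 10 was called for PRDX1 with RANKL, beside 10.2% of all genes. There Atp6v0e (-0.54), Atp6v1f (-0.54) and Atp6v0b (-0.47) had the largest decreases and Atp6v0e2 the largest increase (0.50), each with an adjusted p under 0.05, and Atp6v0e was called lower without no PRDX1 + RANKL replicate 2. In the interaction Atp6v0e was the only one of the 10 called (-0.59), beside 8.85% of all genes (4.35% lower), a call lost under 6 of its 16 alternatives. Atp6v1f joined it without no PRDX1 + no RANKL replicate 1 or without no PRDX1 + RANKL replicate 1. By sector, all 25 subunit genes counted, 8 of the 9 V1 genes tested were higher with RANKL alone at an adjusted p under 0.05 and any fold (37% of all genes), and 8 of 9 lower with PRDX1 added to RANKL (25.6% of all genes). Of the 9 V0 genes tested, 6 were higher and 2 (Atp6v0a1 and Atp6v0e2) lower with RANKL alone (37% and 22.9% of all genes), and 3 were lower and 2 higher with PRDX1 added to it (25.6% and 16.9%).

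Acid secretion by osteoclasts needs partners of the pump, and the list held 9 of them. RANKL without PRDX1 called 5 higher and none lower, beside 21.8% of all genes called (11.8% higher), with a median log2 difference of 0.89. The 4 not called lay below 0, and at an adjusted p under 0.05 and any fold 3 of them were lower: Slc9a7 (-0.45), Plekhm1 (-0.29) and Ostm1 (-0.21), named after their values were seen. The shares of all genes at any fold were 37% higher and 22.9% lower. Slc9b2, a sodium/proton exchanger known from osteoclasts, measured 0.030 and 0.107 FPKM in no PRDX1 + no RANKL, 0.115 and 0.127 in PRDX1 + no RANKL, 55.0 and 60.6 in no PRDX1 + RANKL, and 3.35 and 3.23 in PRDX1 + RANKL. Car2, the carbonic anhydrase that supplies the protons, measured 0.040 and 0 FPKM in no PRDX1 + no RANKL, 0.094 and 0.10 in PRDX1 + no RANKL, 32.6 and 32.4 in no PRDX1 + RANKL, and 3.24 and 2.16 in PRDX1 + RANKL. Both were near 0 without RANKL, and PRDX1 + RANKL lay between the untreated level and that of RANKL alone without overlap. Their log2 differences with RANKL alone were 5.78 and 5.04, values that depend on the added 1 because the levels without RANKL rested on few or no reads. With 0.1 added they were 8.46 and 8.11, and with voom on the recovered reads 9.71 and 10.87, and neither is a bound.

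The other called partners were Snx10 (a sorting nexin of vesicle traffic whose loss causes osteopetrosis, log2 1.52), Slc4a2 (the chloride/bicarbonate exchanger, 0.96) and Clcn7 (the chloride/proton exchanger of lysosome and ruffled border, 0.89). PRDX1 with RANKL called 4 of the 9 lower, beside 10.2% of all genes called (4.17% lower): Slc9b2 (-3.77), Car2 (-3.19), Snx10 (-0.96) and Slc4a2 (-0.90). Clcn7 did not pass there (-0.16). It measured 14.7 and 16.6 FPKM in no PRDX1 + no RANKL, 23.7 and 24.1 in PRDX1 + no RANKL, 28.4 and 31.2 in no PRDX1 + RANKL, and 26.1 and 26.7 in PRDX1 + RANKL, and the untreated group was below the other 3, as for Tcirg1. Slc4a2, by contrast, measured 40.9 and 45.2 FPKM with RANKL alone and 19.1 to 23.7 in the other 6 libraries. The interaction was called lower for the 5 genes that RANKL called, beside 4.35% of all genes. For Slc9b2 and Car2 its size also depended on the added value, at -3.84 and -3.30 with 1 added, -4.52 and -4.30 with 0.1 added, and -5.02 and -6.21 with voom on the recovered reads.

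Of the 4 MiT/TFE factors, RANKL without PRDX1 called 2 higher, Mitf (log2 0.88) and Tfec (0.61), beside 21.8% of all genes called (11.8% higher), while Tfeb stood at 0.31. The fourth, Tfe3, named after its values were seen, stood below 0 (-0.28, adjusted p = 0.0024), so that at any fold 3 were higher and 1 lower, beside 37% and 22.9% of all genes. Mitf measured 11.8 and 12.4 FPKM in no PRDX1 + no RANKL, 15.3 and 15.04 in PRDX1 + no RANKL, 23.0 and 23.2 in no PRDX1 + RANKL, and 15.1 and 15.1 in PRDX1 + RANKL. RANKL alone was high, and the groups with PRDX1 overlapped with each other above the untreated level. PRDX1 with RANKL called none of the 4, beside 10.2% of all genes, with Mitf at -0.58 and Tfec at -0.55, just inside 1.5-fold, and Tfe3 at 0.26 (adjusted p = 0.00662). Mitf was called with a pseudocount of 0.1, with voom and without no PRDX1 + RANKL replicate 1, and Tfec without no PRDX1 + RANKL replicate 2 or PRDX1 + RANKL replicate 1. Mitf was called in the interaction (-0.89). The Tfec call did not survive quantile normalization, upper quartile scaling, or the removal of no PRDX1 + no RANKL replicate 2 or no PRDX1 + RANKL replicate 1.

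Of 12 factors that assemble or regulate the pump, 11 were tested. RANKL without PRDX1 called only Tmem9, a lysosomal membrane protein, as lower (-0.73), beside 21.8% of all genes, a call lost without no PRDX1 + RANKL replicate 1. At an adjusted p under 0.05 and any fold, 4 of the 11 were higher and 4 lower, beside 59.9% of all genes. Tmem9 measured 9.16 and 8.16 FPKM without either factor and 4.01 and 5.72 with RANKL alone. Rogdi and Tmem199 stood at 0.45 and 0.44, below 1.5-fold. PRDX1 called 1 gene of this list lower with RANKL (Dmxl1) and 1 higher without it (Dmxl2), both named after their values were seen, beside 4.17% and 3.8% of all genes. The interaction called none, beside 8.85%. The 13 genes of the Ragulator, the Rag GTPases and their partners, link nutrient sensing to the pump on the lysosome. RANKL without PRDX1 called 2 of the 13 lower and none higher, not far from the 9.96% of all genes called lower: Fnip2 (-0.97), whose product binds folliculin, and Lamtor4 (-0.71), a Ragulator subunit. The GTPase gene Rragc stood at -0.57, just inside 1.5-fold, and was called under quantile and upper quartile scaling, with voom, and without no PRDX1 + no RANKL replicate 1 or no PRDX1 + RANKL replicate 1. At any fold 6 of the 13 were lower and 0 higher, beside 22.9% and 37% of all genes. Fnip2 measured 22.6 and 23.0 FPKM in no PRDX1 + no RANKL, 30.0 and 29.5 in PRDX1 + no RANKL, 10.5 and 11.8 in no PRDX1 + RANKL, and 19.7 and 19.5 in PRDX1 + RANKL. Its groups did not overlap, in the same order as those of Atp6v0a1, and PRDX1 with RANKL called it higher (0.76), 1 of the 13, beside 6.03% of all genes. At any fold that comparison had 5 of the 13 higher and 1 lower, beside 16.9% and 25.6% of all genes. PRDX1 without RANKL called 1 of the 13 higher, Rragd (0.62, adjusted p = 0.00425), a Rag GTPase gene named after its value was seen, beside 3.8% of all genes. No gene of the 13 was called in the interaction, beside 8.85% of all genes.

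**Figure D4:**
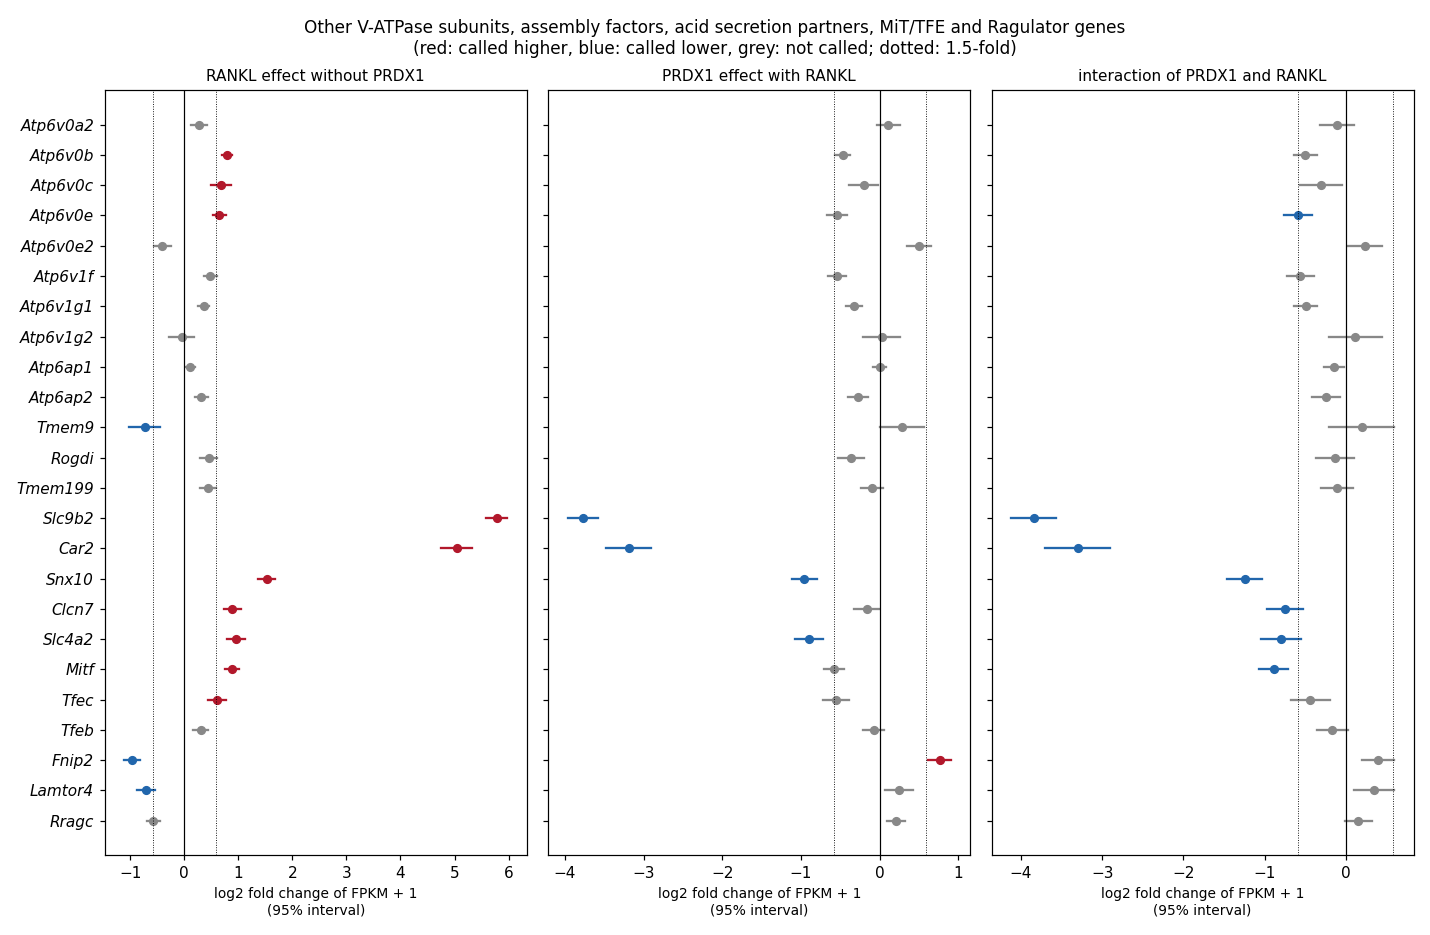
Log2 fold change of FPKM + 1 with its 95% interval for other subunits, assembly factors, acid secretion partners, MiT/TFE and Ragulator genes, for RANKL without PRDX1, PRDX1 with RANKL and their interaction; red points were called higher, blue lower and grey not called, and dotted lines mark 1.5-fold. Slc9b2 and Car2 lay farthest from 0 in all 3 panels, at 5.78 and 5.04, -3.77 and -3.19, and -3.84 and -3.30.

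The genes with the pattern most like that of Atp6v0d2 over the 8 libraries, by Pearson's r of log2(FPKM + 1), were Itgav (0.997), Mitf (0.996), C77080 (0.995), Pik3cb (0.989) and Rassf8 (0.989). Itgav, the integrin chain of the osteoclast adhesion receptor, ranged from 20.7 FPKM without either factor to 39.6 with RANKL alone, a far smaller span than that of Atp6v0d2. For Atp6v0a1 they were Tmem132a (0.998), Ccl2 (0.998), Tecpr1 (0.997), Ch25h (0.997) and BC005537 (0.996). Ccl2, the chemokine that draws monocytes, measured 286 and 307 FPKM in no PRDX1 + no RANKL, 490 and 454 in PRDX1 + no RANKL, 41.3 and 41.0 in no PRDX1 + RANKL, and 151 and 152 in PRDX1 + RANKL. It followed the order of the Atp6v0a1 groups with a wider spread. The 8 points fall into 4 groups of 2, so each r describes 4 group levels and was given no test.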

How the data were processed

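Total RNA of mouse osteoclast precursor cells was sequenced in 8 libraries, 2 in each of 4 groups. The authors aligned the reads to mm10, used HOMER to count them on RefSeq exons, both strands together, and deposited 1 table of FPKM values, normalized to library total and transcript length, with 25124 genes and 0 columns of per-sample values beyond the 8 libraries. The submitters' processing notes also name HISAT2 and DESeq2, with no version. Each library total was chosen as the value that best turned FPKM times transcript length into whole reads. With that total, whole reads were checked in 5162 to 5471 genes a library, those whose rounding could not blur a read. The product came out whole for 100% of them, within the rounding of the table plus 0.02 reads. This check used the same values as the choice of the total.

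FPKM is not a count, so limma 3.58.1 in R 4.3.3 was fitted to log2(FPKM + 1), all 4 groups in 1 model with an intensity trend and no covariate, for the 11700 genes with a mean of at least 0.5 FPKM. The isoform ratios were tested with exact permutation tests in scipy 1.17.1. Of these steps only the limma fit, for the RANKL effect without PRDX1, was tested on simulated data. Alternatives were a pseudocount of 0.1, no filter and a mean of at least 1 FPKM, quantile and upper quartile scaling, no trend, voom on the recovered reads, the compared groups alone, a replicate block and each library left out. Named were all 10 subunit genes and the other 15 subunits, in each other list up to 3 genes with the largest RANKL difference without PRDX1 and those called in the interaction, and for Atp6v0d2 and Atp6v0a1 the 5 most similar genes. The subunit genes and the lists were chosen with earlier results of these data known. Between the replicates of a group, counts differed by 4.71 to 9.58 times the sampling noise (chi-square per degree of freedom), so each library was kept as a sample of its own. A further list of cell type markers is not reported here.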

Additional observations from a re-analysis of the deposited data

Results flagged for a closer look

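The interaction term of the limma model (Benjamini-Hochberg adjusted p under 0.05 and at least 1.5-fold) was called for 9 of the 10 subunit genes, beside 8.85% of all genes tested. It was also called for 7 genes of the other lists: 1 of 10 other subunits, 5 of 9 partners of acid secretion and 1 of 4 MiT/TFE factors, with 0 of 11 assembly factors and 0 of 13 Ragulator and Rag genes. At an adjusted p under 0.05 and any fold, 5 of the 10 other subunits and 2 of the 4 MiT/TFE factors were lower. Of the assembly factors 2 were higher and 2 lower, and of the Ragulator and Rag genes 3 were higher and 0 lower. The share of all genes at any fold was 23.1% (11.2% higher and 12% lower). A value below 0 means that the log2 difference by RANKL was smaller, or more negative, with PRDX1 than without. For the V0 genes it was -4.26 for Atp6v0d2, -0.60 for Tcirg1, 0.70 for Atp6v0a1 and -0.59 for Atp6v0e. For the V1 genes it was -1.39 for Atp6v1b2, -1.26 for Atp6v1d, -0.77 for Atp6v1c1, -0.66 for Atp6v1h, -0.65 for Atp6v1e1 and -0.62 for Atp6v1a. For the partners of acid secretion it was -3.84 for Slc9b2 and -3.30 for Car2 (-5.02 and -6.21 with voom on the recovered reads), -1.25 for Snx10, -0.80 for Slc4a2 and -0.75 for Clcn7, and for the transcription factor gene Mitf it was -0.89. The groups of 2 libraries were too small for a test of single libraries that stand apart. The summed osteoclast and macrophage markers moved with these differences, and their part in them was not tested.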

How the results depend on the processing

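Counts of called subunit genes kept within 1.5 times their value under every alternative, except PRDX1 + RANKL against no PRDX1 + no RANKL, which ran from 1 to 2 when single libraries were left out, as Atp6v0a1 joined without no PRDX1 + no RANKL replicate 1 or PRDX1 + RANKL replicate 2. The interaction fell from 9 calls to 6 under quantile normalization. Tcirg1 also lost that call without no PRDX1 + no RANKL replicate 1, PRDX1 + no RANKL replicate 1, no PRDX1 + RANKL replicate 2 or PRDX1 + RANKL replicate 1 (-0.68 to -0.53 over all libraries left out). The difference by RANKL in the log2 isoform ratio of the d subunit was 4.44 in the libraries without PRDX1 alone and 0.29 in those with it. With single libraries left out it was 1.89 to 2.83. For the a subunit this difference by RANKL in the log2 ratio was 2.12, 0.82, and 1.25 to 1.67. Exact permutation tests cannot pass 0.05 in these designs (exact p = 0.333 with 2 libraries against 2 and 0.0571 with 1 left out).

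Same-numbered libraries deviated together with correlations of 0.008 to 0.096 over the 6 pairs of groups, and the libraries share only a number. The numbers are those of the labels, and folder names in the table's header carry other numbers for both groups without RANKL. With the replicate block the difference by RANKL in the log2 ratio was 2.36 for the d subunit and 1.47 for the a subunit (exact permutation within numbers, p = 0.0556, the smallest possible). The block changed no call of a subunit gene.

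Signs turned only for differences near 0, and the cause was not tested. Under quantile normalization Atp6v0d1 became -0.026 for RANKL without PRDX1 and 0.035 for PRDX1 without RANKL, Tcirg1 0.013 for RANKL with PRDX1 and Atp6ap1 0.066 for PRDX1 with RANKL. Under upper quartile scaling Atp6v0d1 became -0.028 and 0.031 in the same order, Atp6ap1 0.048, and Atp6v1a -0.011 for PRDX1 + RANKL against no PRDX1 + no RANKL. With single libraries left out, RANKL without PRDX1 gave -0.019 to 0.096 for Atp6v0d1 and -0.16 to 0.065 for Atp6v1g2. PRDX1 with RANKL gave -0.012 to 0.063 for Atp6v1g2 and -0.026 to 0.022 for Atp6ap1, and PRDX1 without RANKL -0.084 to 0.072 for Atp6v0d1. RANKL with PRDX1 gave -0.15 to 0.0020 for Atp6v0d1, -0.088 to 0.0020 for Tcirg1 and -0.11 to 0.0066 for Atp6v1d. PRDX1 + RANKL against no PRDX1 + no RANKL gave -0.0033 to 0.016 for Atp6v1a, -0.040 to 0.013 for Atp6v1c1, -0.016 to 0.097 for Atp6v1d and -0.069 to 0.060 for Atp6v1h, and the interaction -0.020 to 0.40 for Tmem9.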
